A study of Homo sapiens with 12 samples.

Results

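The early response shared by crizotinib and ciclopirox was examined in A375, an established human melanoma cell line, on 8 of the 12 Illumina bead arrays of the study. The members were chosen by sample title: 3 arrays of cells exposed to crizotinib for 8 h, 3 arrays of cells exposed to ciclopirox for 8 h, and the 2 control arrays. The other 4 arrays, from 24 h of each drug, entered the fit for its estimate of the spread and are used here only to follow the early genes in time. The study made drug signatures in cell lines in order to set them against the outcome of melanoma patients. Crizotinib is a kinase inhibitor of MET, ALK and ROS1, and ciclopirox is an antifungal agent that chelates iron. Each drug was given at its 75% inhibitory concentration, a reading taken at 72 h and thus long after both 8 h samples. The treatment text names DMSO as the vehicle, and the titles give the controls no time, so a control taken at 8 h cannot be told apart from one taken at 24 h. The titles number the replicates without saying that they were separate cultures. The p-values below thus speak of how far the arrays of a group lay apart, and that spread may be technical.

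The deposited files conflict on which array is which. In the authors' normalized table, used here, columns carry the sample names. Set against the scanner signals, 10 of its 12 columns followed an array other than the one that the sample's description names, and the 2 controls followed their own. Under the names of the descriptions the scanner signals gave 0 common genes, with 0 called by limma with crizotinib and 199 with ciclopirox. Every result below thus rests on the sample names of the normalized table. Its 2 columns for 24 h of crizotinib followed scanner columns that the descriptions assign to ciclopirox at 8 h (correlation 0.977 and 0.979). A column for 24 h of ciclopirox followed another scanner column with that same assignment (0.964). Under the normalized table's names the median SD between arrays of a group was 0.094 to 0.118. The spread under the descriptions' names was not tested, and which naming is right was not settled by the files.

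Melanoma cells depend on a small set of signalling routes that early transcript measurements can follow. Receptor tyrosine kinases can drive the RAS, RAF, MEK and ERK cascade, which controls short-lived transcription factors, phosphatases and feedback inhibitors. The cells also make hyaluronan, a long sugar chain of the pericellular matrix, and respond to TGF-beta, Notch ligands and inflammatory cytokines. SOX10 and MITF are the transcription factors that hold melanocytic identity.

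A gene was taken as common when limma called 3 differences against control in the same direction, each at an adjusted p under 0.05: crizotinib alone, ciclopirox alone and the mean of both. Values are normalized intensities on a log2 scale, where 1 unit is a 2-fold change, and 10330 genes were tested. Common genes numbered 392, which is 3.79% of those tested. Of these, 143 were higher (1.38%) and 249 were lower (2.41%) than in control. The mean of both drugs alone called 1085 genes, or 10.5%, with 433 higher (4.19%) and 652 lower (6.31%). Crizotinib alone called 1013 genes, or 9.81% (4.46% higher, 5.34% lower), and ciclopirox alone 1152, or 11.2% (4.39% higher, 6.76% lower). Of the 1085 genes called on the mean, 635 were called in 1 drug only, 56 in neither drug alone and 21 had opposite signs in the drugs. Both single-drug comparisons use the same 2 control arrays, so an error in the controls moves both drugs in the same direction.

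The common changes were small. The mean change was at least 0.28 in size, with a median of 0.49 for the higher genes and -0.57 for the lower genes, and reached 1.70 in the lower ones. The highest fitted value among the higher genes, 1.14, belongs to PTPRR, which was not above background in control and has only a bound. In 50 of the 143 higher genes both drugs changed by at least 0.5, and in none of them did both reach 1. Among the 249 lower genes, 124 changed by at least 0.5 and 8 by at least 1 in both drugs. All 6 drug arrays lay beyond both controls for all 143 higher and all 249 lower genes. That arrangement was met by 9.82% of all genes above the controls and by 14.2% below them, so by itself it does not set a gene apart. Where it is given below for single common genes, it describes them and is no further evidence. Just inside the threshold lay SHISA2 and SDF2L1, whose largest adjusted p was 0.0498, and just outside it lay RBMS2 and RANBP1, both at 0.05.

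The count rested on the controls more than on any drug array. Without control replicate 1 there were 66 common genes, 14 higher and 52 lower, and 55 of them were among the 392. Without control replicate 2 there were 103, 30 higher and 73 lower, and 85 of them were among the 392. Leaving out 1 drug array gave between 180 and 362. The calls of 37 genes, 7 higher and 30 lower, were kept in all 8 of these fits. These 37 are called the stable common genes below. Every common gene named below that is not among them lost at least 1 of its 3 calls when some single array was left out.

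**Figure D1:**
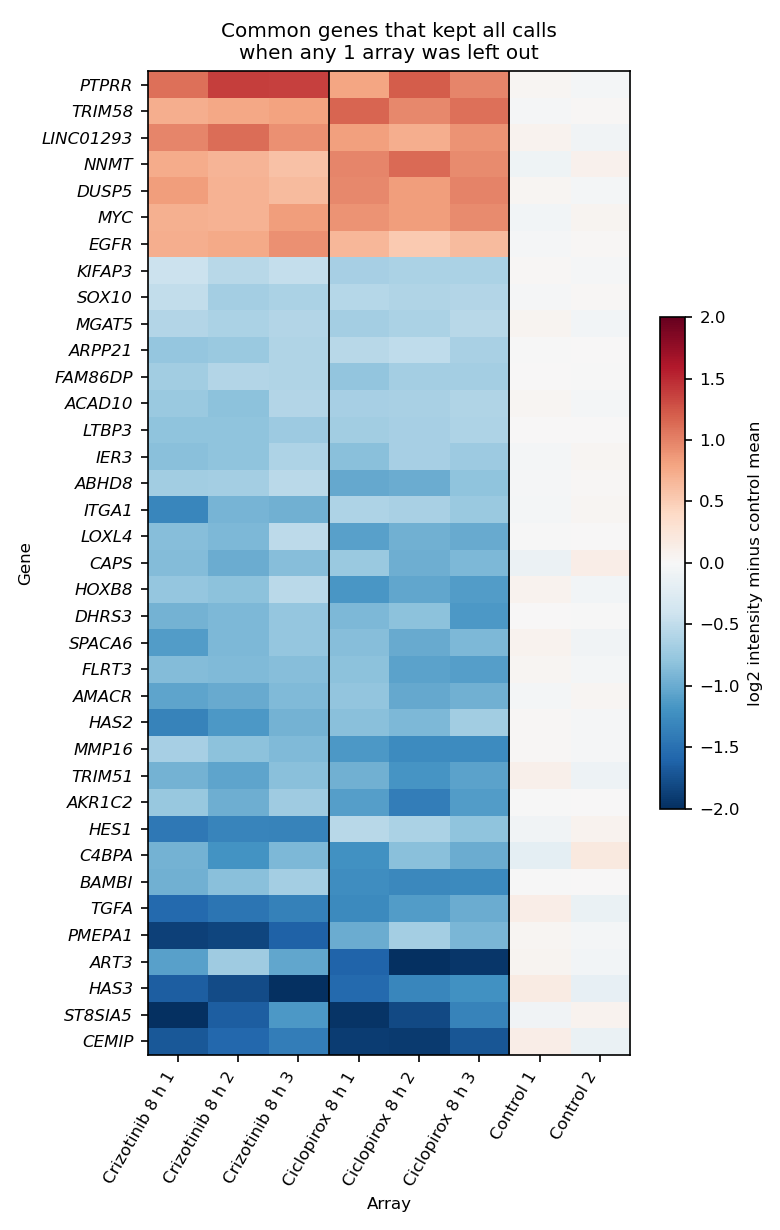
Log2 normalized intensity minus the mean of the 2 control arrays for the 37 stable common genes (down the page, ordered by mean change) on the 3 crizotinib, 3 ciclopirox and 2 control arrays (across), with red above and blue below control on a scale that ends at 2 units either way. All 7 higher genes are red on all 6 drug arrays, where PTPRR was not above background in control and its colours have no exact size, and all 30 lower genes, ending with CEMIP, are blue on all 6.

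CEMIP had the largest mean fall of the 249 lower genes, and 3 further genes that make or break down hyaluronan fell with it. CEMIP, a hyaluronan-binding protein needed for hyaluronan breakdown, had log2 intensities of 7.27, 7.39 and 7.58 after crizotinib and 7.06, 7.04 and 7.25 after ciclopirox, against 9.10 and 8.82 in control. HAS3, a hyaluronan synthase of the plasma membrane, had 6.56, 6.41 and 6.17 after crizotinib and 6.66, 6.90 and 6.99 after ciclopirox, against 8.37 and 8.04 in control. For both genes every drug array lay more than 1 unit below the lower control, with no overlap. CEMIP fell by 1.70 ± 0.12 (SE) on the mean of the drugs (limma adjusted p = 0.000247), and HAS3 fell by 1.59 ± 0.13 (adjusted p = 0.000346). HAS2, a second synthase, was at 4.58, 4.78 and 4.98 after crizotinib and 5.08, 5.02 and 5.23 after ciclopirox, against 5.95 and 5.89 in control. Its drug arrays were not above the background level of 5.33, so on this probe it was at least 1.5-fold lower with each drug than in control (adjusted p = 0.000976 on the mean). A second HAS2 probe gave a smaller mean change of -0.37. CEMIP, HAS3 and HAS2 are all stable common genes. HYAL2, a hyaluronidase anchored to the cell surface, fell by 0.42 ± 0.08 (adjusted p = 0.0131).

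Of the 9 measured genes of the hyaluronan list, 4 were common and lower, beside 2.41% of all genes, and none was common and higher. The median of the list was -0.48 with crizotinib and -0.48 with ciclopirox, beside medians over all genes of -0.03 and -0.02. This list and those below were chosen with earlier results of these data known, so their counts and medians are a description. The remaining 5 did not pass as common. UGDH, which makes a sugar precursor of hyaluronan, differed by -0.41 on the mean (adjusted p = 0.0947), TNFAIP6, which modifies hyaluronan, by -0.51 (0.0899), and the receptor CD44 by -0.13 (0.359). HMMR, a hyaluronan-binding protein of the mitotic spindle, rose by 0.62 with crizotinib (adjusted p = 0.00833) and stood at -0.01 with ciclopirox (0.962). Outside the list and chosen after its values were seen, CEMIP2, a relative of CEMIP, fell by 0.49 ± 0.07 (adjusted p = 0.00379). HAS2-AS1, the antisense transcript of the HAS2 locus and also chosen afterwards, was not above background on any ciclopirox array and was at least 1.47-fold lower there than in control.

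The stretches before the starts of CEMIP and HAS3 are shown because these 2 genes carry the hyaluronan result, and that of NEXN is shown as an example from the higher genes described below. They are the 250 bases upstream in RefSeq's annotation of GRCh38.p14, 5′ to 3′ on the strand of the gene, with capitals on the matches to the motifs searched. CEMIP lies on the plus strand with its stretch at chr15:80779120-80779369, HAS3 on the plus strand at chr16:69107290-69107539, and NEXN on the plus strand at chr1:77888374-77888623.
CEMIP: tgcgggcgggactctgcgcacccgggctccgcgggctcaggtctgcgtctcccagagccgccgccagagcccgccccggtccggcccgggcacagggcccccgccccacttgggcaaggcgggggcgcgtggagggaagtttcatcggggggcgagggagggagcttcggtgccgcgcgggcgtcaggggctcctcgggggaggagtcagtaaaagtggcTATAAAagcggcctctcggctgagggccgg
HAS3: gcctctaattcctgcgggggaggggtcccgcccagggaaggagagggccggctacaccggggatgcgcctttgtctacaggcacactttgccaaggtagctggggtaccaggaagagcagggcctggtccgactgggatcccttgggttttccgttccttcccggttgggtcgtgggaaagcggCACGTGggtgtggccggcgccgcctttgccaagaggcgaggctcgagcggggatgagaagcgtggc
NEXN: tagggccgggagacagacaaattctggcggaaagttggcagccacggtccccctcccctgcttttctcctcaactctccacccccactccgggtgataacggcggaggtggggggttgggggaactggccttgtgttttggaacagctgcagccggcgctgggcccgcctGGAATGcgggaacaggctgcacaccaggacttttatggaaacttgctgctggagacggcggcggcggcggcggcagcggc
Capitals mark TATAAA, a core promoter element, 30 bases before the start of CEMIP, CACGTG (E-box) in HAS3 and GGAATG (TEAD motif) in NEXN. Motifs were sought on both strands, and ACGTG, the core of the hypoxia response element, lies within CACGTG and matches there as well. TATAAA occurred in 11.1% of 27305 promoters of the table, CACGTG in 6.49%, GGAATG in 11.9% and ACGTG in 18.7%. Among the 203 common lower genes with an entry, the shares were 6.9% for TATAAA, 7.88% for CACGTG, 5.91% for GGAATG and 16.3% for ACGTG. For the 117 common higher genes with an entry they were 5.13%, 9.4%, 13.7% and 31.6%, and for all 8373 tested genes with an entry 5.28%, 9.1%, 9.41% and 24.2%, in the same order of motifs. The other motifs searched were TGAGTCA (AP-1), TGACGTCA (CRE), GTAAACA (forkhead) and CCAAT (bound by NF-Y), and none of them was found in these 3 stretches. The search also covered CCDC112, TGFA and SHISA2, which had no match, and AP1M2, which had CCAAT. SH2D5, LINC01293 and ST8SIA5 had no entry. The matches are letters in a window and say nothing about binding.

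Genes of growth factor signalling moved in both directions. TGFA, a ligand of the EGF receptor, had 8.17, 8.26 and 8.38 after crizotinib and 8.46, 8.62 and 8.73 after ciclopirox, against 9.86 and 9.59 in control, a change of -1.29 ± 0.11 (limma adjusted p = 0.000346). EGFR, the receptor itself, had 6.32, 6.35 and 6.51 after crizotinib and 6.26, 6.12 and 6.24 after ciclopirox, against 5.58 and 5.63 in control, a rise of 0.70 ± 0.08 (adjusted p = 0.00108). Both are stable common genes with no overlap between drug and control arrays. A second EGFR probe gave -0.27, so the rise belongs to 1 of its 2 probes, and a second TGFA probe gave -0.98. Of 7 measured EGFR family ligands and receptors, TGFA and EGFR were the common ones, beside 3.79% of all genes. The median of that list was -0.10 with crizotinib and -0.05 with ciclopirox. ERBB3, a partner receptor, stood at -0.27 with crizotinib (adjusted p = 0.13) and fell by 1.13 with ciclopirox (adjusted p = 0.000379), a drug difference of 0.86 ± 0.09 (adjusted p = 0.000548).

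A transcription factor and a phosphatase at the end of the ERK cascade were among the 7 stable higher genes. MYC, a growth-promoting transcription factor, had 9.85, 9.83 and 9.98 after crizotinib and 10.04, 9.97 and 10.09 after ciclopirox, against 9.09 and 9.19 in control. DUSP5, the nuclear phosphatase that inactivates ERK, had 10.02, 9.88 and 9.81 after crizotinib and 10.14, 10.02 and 10.17 after ciclopirox, against 9.22 and 9.14 in control. Every drug array was above both controls for each gene. The rise on the mean was 0.82 ± 0.08 for MYC (limma adjusted p = 0.000556) and 0.83 ± 0.08 for DUSP5 (adjusted p = 0.000543). PTPRR, a tyrosine phosphatase that acts on ERK, was not above background in control and was at least 1.14-fold higher with crizotinib. It was above background on 3 crizotinib arrays and on 1 ciclopirox array, and a second probe of it gave 0.08.

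Other output and feedback genes of the ERK route fell. IER3, an early response gene, had 11.69, 11.72 and 11.90 after crizotinib and 11.69, 11.86 and 11.79 after ciclopirox, against 12.49 and 12.56 in control, a change of -0.75 ± 0.09 (adjusted p = 0.0011). PHLDA1 fell by 0.53 ± 0.10 (adjusted p = 0.0113) and SPRY2, an inhibitor of receptor tyrosine kinase signalling, by 0.52 ± 0.10 (0.0115). Of 23 measured immediate early and ERK output genes, 2 were common and higher and 3 common and lower, beside 1.38% and 2.41% of all genes. The list's median was -0.11 with crizotinib and -0.16 with ciclopirox. Several members responded to 1 drug: SPRY1 rose by 1.52 with ciclopirox (adjusted p = 4.02e-05) and stood at 0.30 with crizotinib (0.0667).

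**Figure D2:**
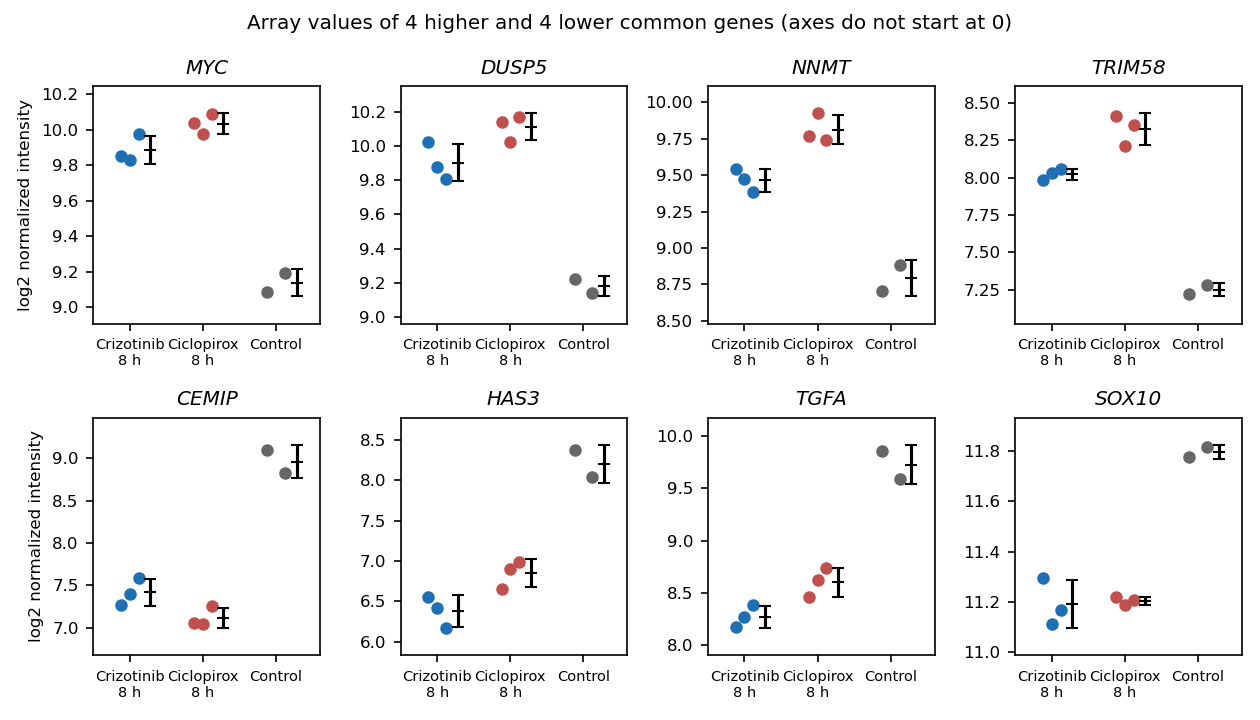
Log2 normalized intensity (vertical axes, each with its own range) of 4 higher common genes (MYC, DUSP5, NNMT, TRIM58) and 4 lower ones (CEMIP, HAS3, TGFA, SOX10) on each crizotinib 8 h, ciclopirox 8 h and control array, with bars for the mean and SD. In every panel the 6 drug arrays lie on one side of both controls; for CEMIP they lie between 7.04 and 7.58, against 8.82 and 9.10 in control.

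PMEPA1 and BAMBI, inhibitors of TGF-beta signalling, fell in both drugs. PMEPA1, which holds SMAD proteins away from the receptor, had 10.07, 10.10 and 10.31 after crizotinib and 10.93, 11.24 and 11.02 after ciclopirox, against 11.97 and 11.89 in control. BAMBI, a receptor-like protein with no kinase domain that blocks signalling, had 9.04, 9.16 and 9.33 after crizotinib and 8.76, 8.72 and 8.73 after ciclopirox, against 9.999 and 10.005 in control. No drug array reached the controls, and the drugs themselves did not overlap: PMEPA1 was lower with crizotinib and BAMBI lower with ciclopirox. The fall on the mean was 1.32 ± 0.12 for PMEPA1 (limma adjusted p = 0.000404) and 1.04 ± 0.10 for BAMBI (adjusted p = 0.000543). ACTA2, a smooth muscle actin, fell by 0.50 ± 0.07 (adjusted p = 0.00386). These were the 3 common genes among 14 measured TGF-beta and SMAD targets, beside 3.79% of all genes. The median of these targets was -0.35 with crizotinib and -0.23 with ciclopirox. LTBP3, a binding protein of latent TGF-beta that is on no list and was chosen after its values were seen, fell by 0.72 ± 0.09 (adjusted p = 0.00165).

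HES1 and HEY1, target genes of Notch signalling, fell in both drugs. HES1, a transcriptional repressor induced by Notch, had 6.68, 6.79 and 6.78 after crizotinib and 7.56, 7.47 and 7.31 after ciclopirox, against 8.05 and 8.18 in control, a change of -1.01 ± 0.09 (limma adjusted p = 0.000439). HEY1, a related repressor, fell by 0.63 ± 0.13 (adjusted p = 0.0144), and all 6 drug arrays were below both controls. They were the 2 common genes of 12 measured in the Notch list, beside 3.79% of all genes. The Notch list had a median of -0.32 with crizotinib and -0.26 with ciclopirox. The ligand JAG1 fell by 1.23 with crizotinib (adjusted p = 0.000645) and stood at -0.28 with ciclopirox (0.165).

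Among 14 measured NF-kB target cytokines and regulators, 4 were common and lower and 1 was common and higher, beside 2.41% and 1.38% of all genes. CXCL8, the chemokine interleukin 8, had 10.71, 10.45 and 10.78 after crizotinib and 12.17, 12.15 and 12.23 after ciclopirox, against 12.66 and 12.64 in control. The crizotinib arrays lay far below the ciclopirox arrays, which in turn lay below control. CXCL8 fell by 2.003 ± 0.12 with crizotinib (limma adjusted p = 2.18e-05) and by 0.47 ± 0.12 with ciclopirox (0.0335). Interleukin 1 genes moved likewise: IL1A fell by 0.89 ± 0.11 on the mean (adjusted p = 0.00194) and IL1B by 0.79 ± 0.10 (0.00191). BCL3, a nuclear regulator of NF-kB, fell by 0.65 ± 0.13 (adjusted p = 0.0147). SOD2, the mitochondrial superoxide dismutase, rose by 0.39 ± 0.09 (adjusted p = 0.0209). The median of this list was -0.31 with crizotinib and -0.25 with ciclopirox. IRF1, a transcription factor of the interferon route, fell by 0.48 ± 0.07 (adjusted p = 0.00407) and was the 1 common gene of 19 measured interferon response genes. Beside 3.79% of all genes, nothing is read from that interferon count.

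Of 18 measured extracellular matrix genes, 4 were common, beside 3.79% of all genes, and these 4 were lower. PRRX1, a mesenchymal homeobox factor, had 8.50, 8.17 and 8.57 after crizotinib and 7.85, 7.83 and 8.04 after ciclopirox, against 9.58 and 9.08 in control, a change of -1.17 ± 0.15 (limma adjusted p = 0.00191). DKK3, a secreted glycoprotein, fell by 1.08 ± 0.14 (adjusted p = 0.00235), the collagen COL8A1 by 0.87 ± 0.17 (0.0126) and the laminin chain LAMA4 by 0.59 ± 0.12 (0.0142). The median of the list was -0.37 with crizotinib and -0.17 with ciclopirox. Among the genes named by the size of their fall, the integrin subunit ITGB3 fell by 0.94 ± 0.15 (adjusted p = 0.00667). Among the stable common genes, and chosen after their values were seen, were the lysyl oxidase-like enzyme LOXL4 (-0.89 ± 0.10), the collagen-binding integrin subunit ITGA1 (-0.87 ± 0.10), the membrane-bound metalloproteinase MMP16 (-1.004 ± 0.11), the cell-surface protein FLRT3 (-0.94 ± 0.08) and MGAT5 (-0.61 ± 0.07), which branches N-linked sugar chains. For each of them the 6 drug arrays lay below both controls.

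The 15 higher genes named by the smaller of their drug changes were SH2D5, NEXN, AP1M2, LINC01293, CCDC112, TRIM58, STXBP6, LIMA1, MYC, CAV2, PRR16, DUSP5, RPL23AP7, STARD13 and NNMT. NEXN, an actin-binding protein, had 7.01, 7.48 and 7.56 after crizotinib and 7.66, 7.60 and 7.53 after ciclopirox, against 6.53 and 6.44 in control, a rise of 0.99 ± 0.15 (limma adjusted p = 0.004). LIMA1, which binds and bundles actin filaments, rose by 0.88 ± 0.15 (adjusted p = 0.00749). CAV2, a caveolin, rose by 0.81 ± 0.11 (adjusted p = 0.00327) on 1 probe, while its other probe gave -0.06. One crizotinib array held the lowest drug value of NEXN, still above both controls.

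The other higher genes had varied functions. NNMT, which methylates nicotinamide, had 9.54, 9.47 and 9.38 after crizotinib and 9.77, 9.92 and 9.74 after ciclopirox, against 8.71 and 8.88 in control, a rise of 0.84 ± 0.09 (limma adjusted p = 0.000792). TRIM58, a ubiquitin ligase, had 7.98, 8.03 and 8.05 after crizotinib and 8.41, 8.21 and 8.35 after ciclopirox, against 7.22 and 7.28 in control, a rise of 0.92 ± 0.07 (adjusted p = 0.000346). Each gene rose more with ciclopirox than with crizotinib, and neither drug overlapped control. LINC01293, a noncoding RNA, rose by 0.91 ± 0.09 (adjusted p = 0.00068). AP1M2, an adaptor subunit of vesicle coats, rose by 0.91 ± 0.17 (adjusted p = 0.0113), and its 2 controls, at 6.37 and 7.12, lay far apart. SH2D5 rose by 1.04 ± 0.20 (adjusted p = 0.012) on 1 probe, with -0.03 on another. The potassium channel KCNH1 was not above background in control and was at least 1.39-fold higher with crizotinib and at least 1.32-fold higher with ciclopirox. RPL23AP7 is a pseudogene with near-identical copies, so its rise of 0.73 ± 0.15 is uncertain as to source.

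The 15 lower genes named by the same rule were ST8SIA5, CEMIP, HAS3, TGFA, SHISA2, SERPINA3, WDR24, VSNL1, TNFRSF19, ART3, TRIM51, ITGB3, AMACR, NREP and SPACA6. ST8SIA5, a sialyltransferase that builds gangliosides, had 5.19, 5.55 and 6.05 after crizotinib and 5.24, 5.40 and 5.87 after ciclopirox, against 7.13 and 7.27 in control, a change of -1.65 ± 0.21 (limma adjusted p = 0.002). SERPINA3, the protease inhibitor alpha-1-antichymotrypsin, had 9.98, 10.02 and 10.84 after crizotinib and 9.92, 9.93 and 10.16 after ciclopirox, against 11.53 and 11.18 in control, a change of -1.21 ± 0.21 (adjusted p = 0.00906). In ST8SIA5 1 array of each drug was not above background, and in both genes the third crizotinib array was the highest drug array. TNFRSF19, a receptor of the tumour necrosis factor family, fell by 1.21 ± 0.14 (adjusted p = 0.0011), and AMACR, a racemase of branched fatty acid breakdown, by 0.95 ± 0.10 (0.000976). RAMP1, a co-receptor of the calcitonin receptor family, was not above background on any ciclopirox array and was at least 2.13-fold lower there, and it fell by 0.91 ± 0.16 with crizotinib (0.00964). AKR1C2, chosen afterwards, fell by 1.01 ± 0.10 and shares most of its sequence with AKR1C1, so the source of that signal is uncertain.

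Chaperone genes were lower where they were common. HSPA1A, an inducible HSP70, had 9.55, 9.17 and 9.39 after crizotinib and 9.23, 9.12 and 9.38 after ciclopirox, against 10.05 and 9.94 in control, a change of -0.69 ± 0.14 (limma adjusted p = 0.015). BAG3, a co-chaperone of HSP70, fell by 0.42 ± 0.08 (adjusted p = 0.0109) and the small heat shock protein HSPB1 by 0.39 ± 0.07 (0.00791). They were the 3 common genes of 17 measured heat shock genes, beside 3.79% of all genes. The median of the heat shock list was -0.18 with crizotinib and -0.01 with ciclopirox. HSPA1A and HSPA1B are near-identical copies, and the HSPA1B probe gave -0.06 (adjusted p = 0.715), so the fall cannot be assigned to a gene with certainty. Of the ribosome biogenesis list, MYC and the nucleolar helicase DDX21 were the 2 common genes of 25 measured, and DDX21 rose by 0.47 ± 0.07 (adjusted p = 0.00605). TXNRD1, the cytosolic thioredoxin reductase, rose by 0.47 ± 0.08 (adjusted p = 0.00934) as the 1 common gene of 16 NRF2 targets. CRY1, a clock repressor, rose by 0.50 ± 0.09 (adjusted p = 0.0087) as the 1 of 12 clock genes, and its other probe gave 0.02. Beside 3.79% of all genes, nothing is read from the counts of the ribosome biogenesis, NRF2 and clock lists.

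**Figure D3:**
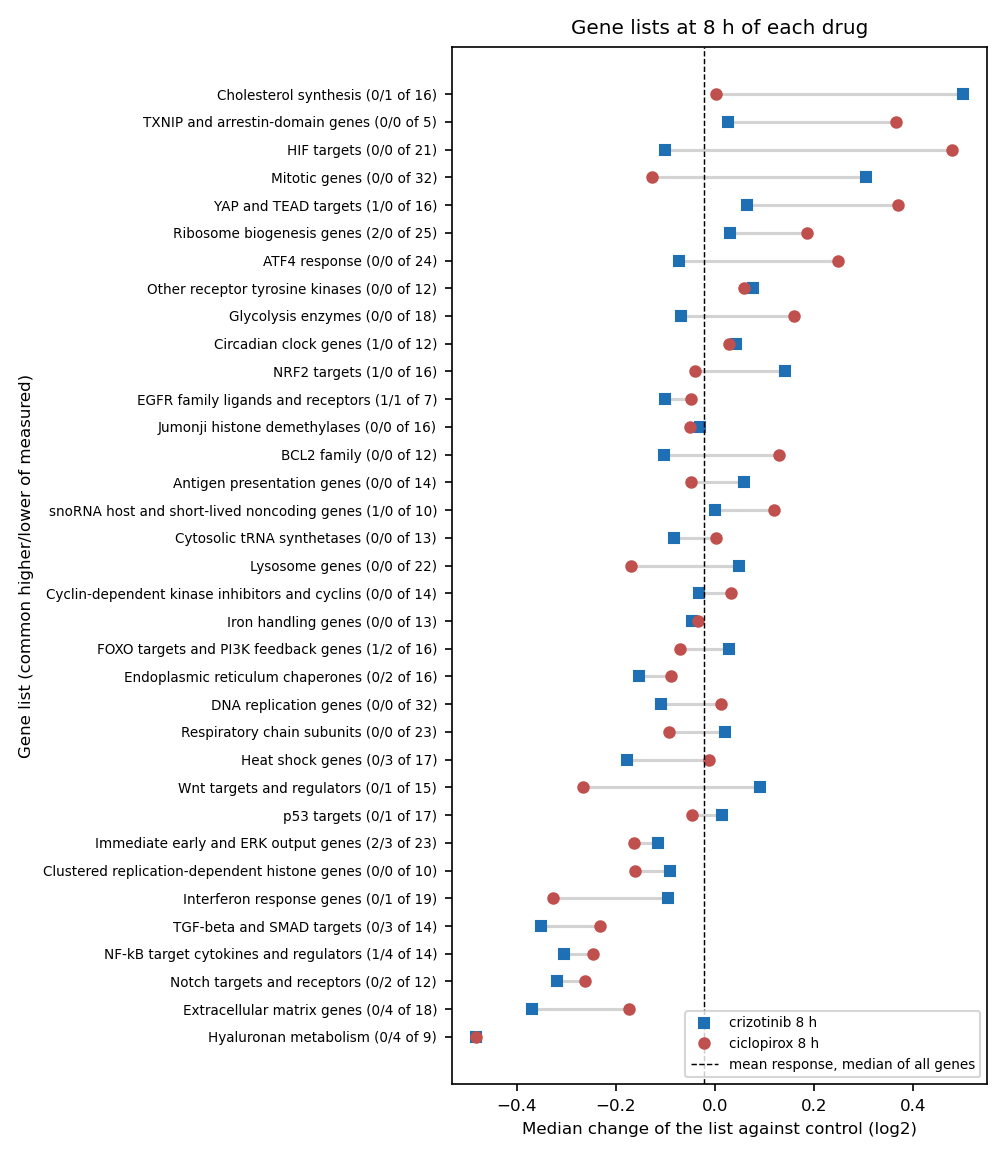
Median change against control (horizontal axis, log2) of each gene list with crizotinib 8 h (blue squares) and ciclopirox 8 h (red circles), ordered by the median of the mean response, with the number of common higher and common lower genes of those measured in brackets and the median over all genes, -0.02, as a dashed line. Hyaluronan metabolism has the lowest medians, at -0.48 in both drugs, while HIF targets lie at -0.10 with crizotinib and 0.48 with ciclopirox.

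The melanocytic identity of the cells was visible in part. SOX10 had 11.30, 11.11 and 11.17 after crizotinib and 11.22, 11.19 and 11.21 after ciclopirox, against 11.78 and 11.82 in control, a change of -0.60 ± 0.07 (limma adjusted p = 0.00129). Every drug array lay below both controls, and SOX10 is a stable common gene. The difference between the drugs was -0.01 ± 0.07 (adjusted p = 0.935). Of 14 melanocyte lineage markers 6 were tested, and MLANA, PMEL, S100B, TYR and TYRP1 were detected on no array. MITF lay near the background level, at 5.32 with crizotinib and 5.53 with ciclopirox, against 5.43 in control. GPNMB, a lysosomal glycoprotein, rose by 0.77 with crizotinib (adjusted p = 0.00629) and stood at 0.40 with ciclopirox (0.0665). The summed linear intensity of the marker list was 4049 to 4493 with crizotinib and 3624 to 3766 with ciclopirox, against 5390 to 5430 in control. A linear sum follows its brightest members, and SOX10 and ERBB3 were the 2 markers called lower on the mean. Over all genes, 6.31% were called lower and 4.19% higher on the mean. GPNMB was called higher (0.59), while CDH19 (0.12), PAX3 (0.13) and MITF (-0.01) were not called, and the median of the 6 tested markers was -0.07 with crizotinib and 0.08 with ciclopirox. Of 8 tested markers of melanoma dedifferentiation, EGFR, described above, was the 1 called on the mean. Beside 10.5% of all genes, nothing is read from that count. The median of those 8 was 0.001 with crizotinib and 0.25 with ciclopirox. All 6 keratinocyte markers on the array were detected nowhere, and the summed leukocyte markers were 602 to 657 with crizotinib and 605 to 624 with ciclopirox, against 613 to 616 in control. On the mean, 1 of 5 tested fibroblast markers was called higher, beside 4.19% of all genes, and the 1 tested endothelial marker was not called. In RNA of a whole culture, fewer cells of a kind and less RNA per cell cannot be told apart.

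Some gene lists were called mostly in 1 drug. Of 21 measured HIF targets, the mean of the drugs called 6 as higher, beside 4.19% of all genes. Crizotinib called none higher and 1 lower, beside 4.46% and 5.34%, while ciclopirox called 11 higher, beside 4.39%. No member was common. Beside 3.79% of all genes, nothing is read from that count or from the crizotinib counts. HK2, a glycolytic enzyme, stood at 0.21 with crizotinib (limma adjusted p = 0.185) and rose by 1.44 with ciclopirox (7.58e-05). The drug difference was called for 13 of the 21, beside 10% of all genes. Of 16 measured genes of cholesterol synthesis, 7 were called higher on the mean, 10 with crizotinib and 0 with ciclopirox. The shares of all genes were 4.19%, 4.46% and 4.39% in that order, so nothing is read from the count of 0. HMGCS1, an early enzyme of that pathway, rose by 1.64 with crizotinib (adjusted p = 1.19e-05) and stood at 0.26 with ciclopirox (0.0693). SREBF1, a regulator of lipid synthesis, was the 1 common gene of these 16, beside 3.79% of all genes. Its change on the mean was -0.55 ± 0.09 (adjusted p = 0.00569). No gene of the mitotic, DNA replication, ATF4, glycolysis, lysosome or iron handling lists was common, and with 13 to 32 measured genes a list, beside 3.79% of all genes, nothing is read from these counts.

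A mean over both drugs can also hide opposite changes. In 9 genes both drugs were called against control in opposite directions, 3 higher with crizotinib and 6 higher with ciclopirox, and the mean called 2 of them. ANGPTL4, a secreted lipase inhibitor, had 4.84, 4.27 and 4.69 after crizotinib, all below the background level, and 7.40, 7.34 and 7.57 after ciclopirox, against 5.74 and 5.81 in control. EDN1, the vasoconstrictor endothelin 1, had 5.88, 5.79 and 6.22 after crizotinib and 8.53, 8.69 and 8.68 after ciclopirox, against 7.40 and 7.29 in control. The controls of both genes lay between the drugs, and the mean change was 0.24 for ANGPTL4 (limma adjusted p = 0.269) and -0.05 for EDN1 (0.856). IL24, a cytokine, rose by 1.84 with crizotinib (adjusted p = 2.18e-05) and fell by 0.41 with ciclopirox (0.0422), which gave a mean of 0.72 ± 0.10 (0.00349).

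**Figure D4:**
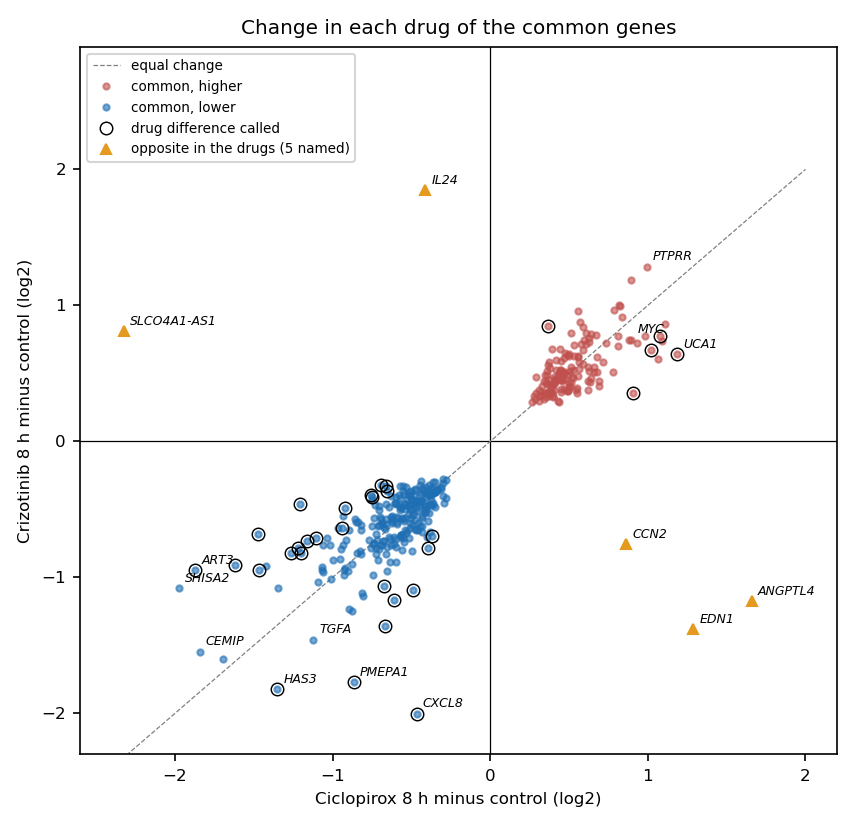
Log2 change against control of each common gene with ciclopirox 8 h (horizontal) and crizotinib 8 h (vertical), with red for the 143 higher and blue for the 249 lower genes, black rings where the difference between the drugs was called, and orange triangles for 5 genes that moved in opposite directions. Red points fill the upper right and blue points the lower left, as the definition requires, and CXCL8 and ART3 lie far from the line of equal change.

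The size of the change was also compared between the drugs. The difference between crizotinib and ciclopirox, which uses no control array, was called in 5 of the 143 higher and 26 of the 249 lower common genes, beside 10% of all genes, 5.15% higher and 4.87% lower with crizotinib. The need for a change in both drugs favours genes of like size, so these counts are a description. Among the 5 higher genes 4 rose more with ciclopirox, and among the 26 lower genes 9 fell more with crizotinib and 17 with ciclopirox. GAB2, a scaffold of receptor signalling, had 8.87, 8.97 and 8.91 after crizotinib and 8.52, 8.34 and 8.46 after ciclopirox, against 8.05 and 8.09 in control, a difference of 0.48 ± 0.09 (limma adjusted p = 0.00877). MARCHF4, a ubiquitin ligase, had 9.77, 9.66 and 9.77 after crizotinib and 10.18, 10.32 and 10.33 after ciclopirox, against 9.37 and 9.37 in control. Its difference was -0.54 ± 0.07 (adjusted p = 0.00192). KLF9, a Kruppel-like transcription factor, had 9.55, 9.49 and 9.80 after crizotinib and 8.82, 8.90 and 8.89 after ciclopirox, against 10.14 and 10.02 in control, a difference of 0.74 ± 0.11 (0.00273).

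The same genes were followed to 24 h. The median of the higher genes, measured against control, was 0.49 at 8 h and 0.17 at 24 h of crizotinib, and 0.49 at 8 h and 0.30 at 24 h of ciclopirox. For the lower genes it was -0.57 at 8 h and -0.12 at 24 h of crizotinib, and -0.57 at 8 h and -0.18 at 24 h of ciclopirox. The difference between 24 h and 8 h over both drugs was called for 42.6% of all genes, 23.8% higher and 18.8% lower at 24 h. It was called in the direction back to control in 85 of the 143 higher and 181 of the 249 lower genes, and further from control in 5 and 10. Genes chosen by their 8 h change against these controls tend to lie nearer to control at any other time, and the 8 h arrays that chose them also enter this difference, so nothing is read from these medians and counts.

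**Figure D5:**
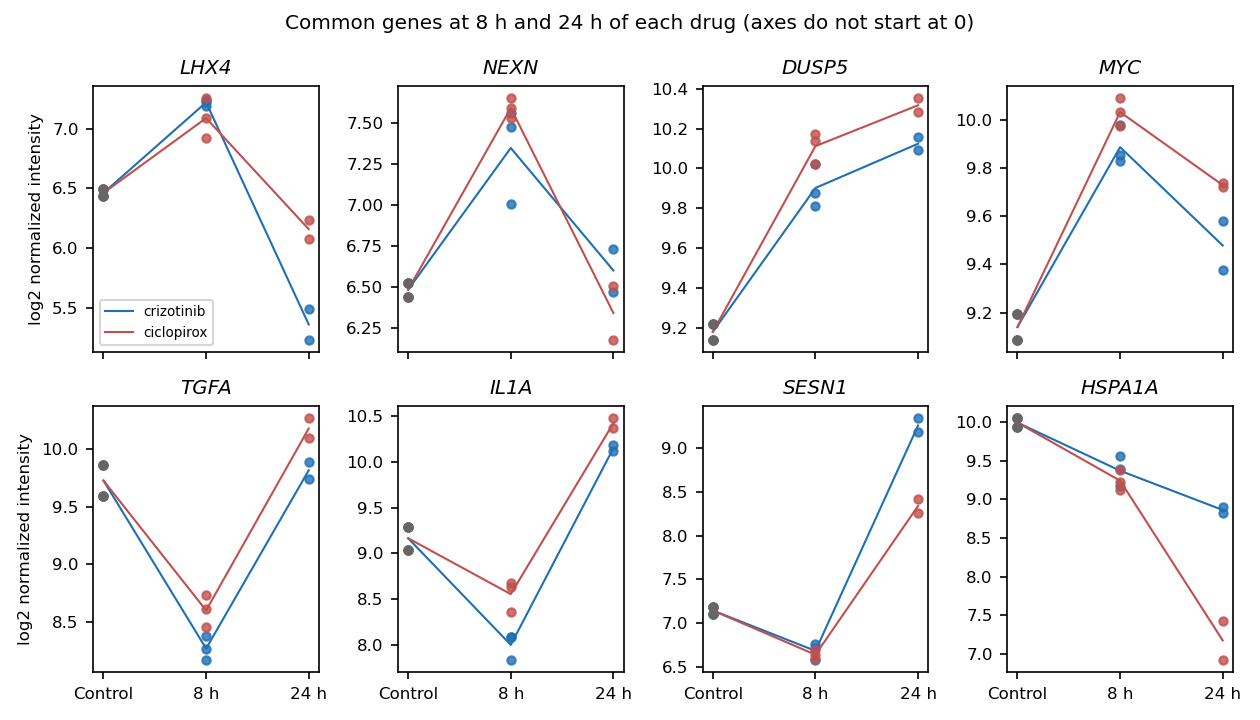
Log2 normalized intensity (vertical axes, each with its own range) of 8 common genes in control and at 8 h and 24 h of crizotinib (blue) and ciclopirox (red), with a point for each array and lines through the group means. LHX4 and NEXN are high at 8 h, while TGFA, IL1A and SESN1 are low at 8 h and at or above control at 24 h; DUSP5 stays high and HSPA1A is lowest at 24 h.

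Some genes crossed to the other side of control. Relative to control, SESN1, a stress-induced regulator of TOR signalling, was at -0.46 after 8 h and 2.11 after 24 h of crizotinib, and at -0.50 and 1.19 after the same times of ciclopirox. IL1A was at -1.17 and 0.99 with crizotinib and at -0.61 and 1.26 with ciclopirox, and ACTA2 at -0.33 and 2.54 with crizotinib and at -0.66 and 1.16 with ciclopirox. The 24 h minus 8 h difference over both drugs was 2.13 ± 0.07 for SESN1 (limma adjusted p = 2.38e-08), 2.01 ± 0.09 for IL1A (4.46e-07) and 2.35 ± 0.06 for ACTA2 (5.95e-09). SESN1, IL1A and ACTA2 were named for the size of this difference, and the 8 h arrays that made them common also enter it. Its p-values are thus no independent support for a crossing. CEMIP stood at -0.12 after 24 h of crizotinib and 0.47 after 24 h of ciclopirox, and TGFA at 0.09 and 0.45, and for both genes the 2 ciclopirox arrays of 24 h lay above both controls. HAS3 stood at -1.23 with crizotinib and -0.14 with ciclopirox. SOX10 was 0.07 and 0.09 above control after 24 h of crizotinib and of ciclopirox. LHX4, a homeobox factor that was 0.69 ± 0.10 higher at 8 h (adjusted p = 0.004), was at -1.10 after 24 h of crizotinib, with 1 of 2 arrays above background, and -0.30 after 24 h of ciclopirox.

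A few genes went on in the early direction. DUSP5 was 0.94 above control after 24 h of crizotinib and 1.14 after 24 h of ciclopirox, and its 24 h minus 8 h difference was 0.21 ± 0.06 (limma adjusted p = 0.0198). SLC30A1, a zinc exporter, rose by 0.48 ± 0.07 at 8 h (adjusted p = 0.00532) and stood 0.998 and 0.56 above control after 24 h of crizotinib and of ciclopirox. HSPA1A was 1.29 ± 0.11 lower at 24 h than at 8 h (adjusted p = 1.57e-05), at -1.13 with crizotinib and -2.82 with ciclopirox against control. PTPRR, not above background in control, had 7.35 and 7.50 after 24 h of crizotinib and 5.13 and 5.41 after 24 h of ciclopirox, and 1 of these 2 ciclopirox arrays was above the background level of 5.33. DUSP5 and HSPA1A were likewise named by their 24 h minus 8 h difference, so its p-values are no independent support. The 24 h values against control are given without a test.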

How the data were processed

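RNA of A375 cells (300 ng of each sample) was labelled and hybridised to Illumina bead arrays on 1 chip, per the labels. The scanner table that the authors deposited gives, per the file headers, 47231 probes with their mean signal intensity on every array and a p-value for detection. The submitters' processing notes name GenomeStudio without a version. A second deposited table holds the authors' normalized intensity of 38220 probes on a linear scale, with array medians from 28.3 to 29.6. For the normalization, the method is not stated in the labels or headers, and equal medians hide any change in total RNA. Its columns are named by sample and were used here on a log2 scale. Each followed 1 scanner column (correlation 0.928 to 0.979, with 0.833 or less for any other), but 10 of 12 arrays followed a column other than the one in their description, and the 2 controls followed their own.

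Probes with a detection p under 0.01 on at least 2 of 12 arrays were kept (16563), and the brightest named probe stood for each gene, which left 10330 genes. Names came from the platform annotation: 27002 probes had 1 symbol, 4 had several and 11214 were unnamed here. Background was the 99th percentile of the 20196 probes detected nowhere. A gene not above background in a group has only a bound there, taken between the mean of the brighter group and the background level of 5.33. The number of arrays limits the precision.

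limma 3.58.1 in R 4.3.3 fitted the group means over all 12 arrays (7 residual degrees of freedom, empirical Bayes), two-sided, with Benjamini-Hochberg adjustment over all genes in each comparison. The steps were tested on simulated data with independent noise for each gene and array. Such data hold no error shared by the genes of a control array, so they do not speak to it. No pairing by replicate number was seen: 0 of 21 same-numbered pairs deviated together with r over 0.1 (-0.089 to 0.072). In a group of 2 arrays the deviations mirror each other, so these pairs are not separate checks and do not exclude a pairing. Alternatives covered the detection filter, a pseudocount of 16, scaling, other probes, scanner signals, the spread estimate, a replicate block and leaving out each array. All members, lists and motifs were chosen with earlier results of these data known. Genes were named by the smaller of their 2 drug changes, by bounds, by drug difference, by the later change, by list membership and as lineage markers. SOD2, PHLDA1 and SPRY2, genes at the threshold, the stable common genes named as such, and list members given without a call were added after their values were seen. Promoters came from RefSeq (GRCh38.p14), where 8373 of the 10330 genes had an entry.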

Additional observations from a re-analysis of the deposited data

Results flagged for a closer look

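The genes below were singled out because the difference between the drugs at 8 h, crizotinib minus ciclopirox, was itself called by limma. No explanation was tested for any of them.

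Among common higher genes the difference was -0.54 ± 0.07 (SE) for MARCHF4 (adjusted p = 0.00192), -0.54 ± 0.13 for UCA1, a long noncoding RNA (0.0293), -0.35 ± 0.09 for NNMT (0.0347), -0.30 ± 0.07 for TRIM58 (0.0302) and 0.48 ± 0.09 for GAB2 (0.00877). UCA1 rose by 0.64 with crizotinib and by 1.18 with ciclopirox.

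Among common lower genes it was -1.54 ± 0.11 for CXCL8 (2.89e-05), -0.90 ± 0.12 for PMEPA1 (0.00131), 0.93 ± 0.13 for ART3 (0.00195), 0.79 ± 0.14 for DKK3 (0.00783) and 0.74 ± 0.11 for KLF9 (0.00273). ART3, of the ADP-ribosyltransferase family, fell by 0.95 with crizotinib and by 1.87 with ciclopirox, and was above background on 1 of 3 ciclopirox arrays. DKK3 fell by 0.68 with crizotinib and by 1.48 with ciclopirox.

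Where the drugs moved a gene in opposite directions, the difference was 3.14 ± 0.19 for SLCO4A1-AS1 (1.02e-05), -2.83 ± 0.13 for ANGPTL4 (3.19e-06), -2.67 ± 0.14 for EDN1 (3.56e-06), 2.26 ± 0.10 for IL24 (3.19e-06) and -1.62 ± 0.08 for CCN2 (3.44e-06). The antisense RNA SLCO4A1-AS1 rose by 0.81 with crizotinib and fell by 2.33 with ciclopirox. The matrix protein CCN2 fell by 0.76 with crizotinib and rose by 0.86 with ciclopirox. The crizotinib value of ANGPTL4 and 2 of 3 ciclopirox values of SLCO4A1-AS1 were not above background, so these sizes depend on values near it.

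Other genes named above whose drug difference was called had smaller differences or differed as single-drug responses. Among lower common genes these were HAS3 (-0.47), IL1B (-0.60), IL1A (-0.56), HES1 (-0.70), ITGA1 (-0.40), BAMBI (0.44), TNFRSF19 (0.52), RAMP1 (0.71, with no ciclopirox array above background, so its size is not exact), ACTA2 (0.33), MMP16 (0.43) and AKR1C2 (0.38), a negative value marking the larger fall with crizotinib. Among genes that were not common they were HK2 (-1.22), SPRY1 (-1.22), JAG1 (-0.95), HMGCS1 (1.38), ERBB3 (0.86) and HMMR (0.63).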

How the results depend on the processing

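The controls and the source of the values set the counts, and for the changes below the cause was not tested beyond what each alternative does. Leaving out 1 array gave 149 to 1211 genes on the mean of the drugs, 216 to 875 with crizotinib, 268 to 1180 with ciclopirox, 503 to 932 for the drug difference, 3988 to 4318 for 24 h against 8 h, and 66 to 362 common genes, 14 to 127 higher and 52 to 235 lower. The common count was 206 without crizotinib replicate 1, 180 without replicate 2, and 226, 227 and 234 without ciclopirox replicate 1, 2 and 3. With no detection filter, which tests more genes, the calls were 371 on the mean, 311 with crizotinib, 465 with ciclopirox, 482 for the drug difference and 103 common (30 higher, 73 lower). Detection on all 12 arrays, which tests fewer, gave 221 common higher genes. The replicate block left 83 common higher genes of 267 common, and no pairing by replicate number was seen. Trended and robust spread gave 1776, 1719 and 1750 calls on the mean, with crizotinib and with ciclopirox, and 725 common (289 higher, 436 lower). Scanner signals matched by value and scaled to the median of tested probes gave 1862, 1797 and 1832 calls in that order and 743 common (341 and 402), with 51.1% of the calls on the mean higher, beside 39.9%. Scaled to the median of all probes, an alternative chosen after seeing the data, they gave 2486, 2265 and 2051, and 1115 common (49 and 1066), with 7.8% higher. That scaling moved the median change of all genes to -0.113, beside -0.021, so the split between higher and lower depends on the scaling. Of the named genes, 0 turned sign under these 2 scalings or under scaling of the value table to its 75th percentile. On scanner signals under the names of the descriptions no gene passed on the mean (0), with crizotinib (0), between 24 h and 8 h (0) or as common (0 higher, 0 lower), while 199 passed with ciclopirox and 2166 between the drugs. Under those names the mean change turned for ACTA2 (0.86), IL1B (0.30), SESN1 (0.71), IL1A (0.02) and SLCO4A1-AS1 (0.78). Another probe turned it for EGFR (-0.27), CAV2 (-0.06) and SH2D5 (-0.03). Defining common by a call on the mean and a like sign gave 1064 (419 and 645), and asking 0.5 in both drugs gave 174 (50 and 124). Of 1786 values for 98 named genes over these settings, 1588 kept direction and call, 182 lost the call (84 under the descriptions' names), 8 gained it (HMMR, UGDH and TNFAIP6) and 8 turned.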

Other observations

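Of the common genes with further detected probes, 13 of 60 higher and 5 of 54 lower genes had a probe whose mean change had the opposite sign. At least 1 group lay at background in 2 of the 143 higher and 20 of the 249 lower genes, so the size of those changes is a bound. The median SD between arrays of 1 group was 0.118 for crizotinib 8 h, 0.108 for ciclopirox 8 h and 0.097 for control, the last from 2 arrays.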
